A study of Mus musculus with 12 samples.

Results

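The collagen chain genes were taken as every gene symbol that is written as Col, a number, the letter a and a further number. This choice gave 44 of the 23238 symbols, and it used the names only. Of these, 11 encode fibrillar chains, 6 encode the type IV chains of basement membranes and 27 encode other chains. They were measured by RNA sequencing in 12 libraries of mouse cells that the labels call meningeal lymphatic endothelial cells, isolated with magnetic beads (MACS) from the meninges of mice 20 weeks old. The titles place 4 libraries each in SJL_B6, AD_B6 and AD_TG, and the labels give C57BL/6 as the strain of all 12. They neither spell out the abbreviations nor name a transgene or its promoter, and the series title speaks of DSCR1 and amyloid pathology. The titles of AD_TG and AD_B6 differ only in TG against B6, so what goes with the TG label cannot be told apart from the absence of the B6 label. In the same way AD_B6 and SJL_B6 differ in AD and in SJL together. The design text names 3 to 4 mice per strain and libraries in quadruplicate, and nothing says that each library had an animal of its own. The p-values therefore measure only the spread between these samples, which may be technical.

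Collagens are secreted proteins of 3 chains wound into a triple helix, and each chain has a gene of its own. Fibrillar collagens form the tensile fibrils of connective tissue, such as the dura and the leptomeninges around the brain, and fibroblasts make most of them. Type IV collagen forms the sheet-like network under endothelium and around other cells, and most of the other collagens bind to fibrils, form finer networks or span the cell membrane.

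The values are those the authors deposited, log2 of a scaled amount plus 1, and a gene counts as having reads in a library where the linear amount is 0.3 or more. The scaling behind them is not given in the sources used here, so levels of single genes are compared between libraries and not between genes. The value of 1 read could be read from the spacing of the low values, which gave an estimated 4021138 to 9307807 reads per library. Genes with reads numbered 8748, in AD_B6 replicate 3, to 12217. The markers of the labelled cell type were unevenly present: Pdpn had reads in 12 of 12 libraries and Lyve1 in 11, whereas Flt4 had reads in 6 and Prox1, the transcription factor that defines lymphatic fate, in 2. Of the other listed lymphatic markers, Nrp2 had reads in 12 libraries, Ccl21a in 9, Mmrn1 in 6 and Reln in 4. Among 8 pan-endothelial markers 1 had reads in all 12 libraries, and among 6 macrophage markers all 6 did. In such bulk samples fewer cells of a type and less RNA per cell cannot be told apart.

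Collagen transcripts were a small and uneven part of the libraries. The 44 genes together made up 0.292 to 1.001% of the linear total of a library, with a median of 0.522%. That total also holds abundant and variable transcripts such as Rn45s, at log2 values of 18.365 to 20.049, and Ttr, at 13.38 to 19.185. Their part in the collagen share was not tested. The share was highest in AD_B6 replicate 3, at 1.001%, and in AD_TG replicate 3, at 0.852%, and it was lowest in AD_TG replicate 2, at 0.292%. The highest and the lowest share of AD_TG thus came from libraries of the same group, and the ranges of the 3 groups overlapped. Fibrillar chains took 0.107 to 0.694% of a library, type IV chains 0.00715 to 0.0287% and the other chains 0.168 to 0.278%. Most of the spread between libraries was therefore in the fibrillar chains. The summed level of 10 meningeal fibroblast markers, all 10 of which had reads, ranged over 14.31 to 14.83 (SJL_B6), 14.31 to 15.60 (AD_B6) and 14.36 to 14.99 (AD_TG) on the log2 scale. It was highest in AD_B6 replicate 3 and next in AD_TG replicate 3, the same libraries that had the highest collagen shares. A sum of linear amounts weighs the most abundant members, here Mgp and Igf2. Mgp, Foxc1 and Gjb2 were also highest in these libraries. Ogn was below its mean of 9.01 in AD_B6 replicate 3, at 7.08. Igf2 was below its mean of 13.16 in these libraries, at 13.05 and 12.70. The part of the summed level in the collagen share was not tested.

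Of the 44 genes, 42 had reads in at least 1 library, 15 in all 12 and 27 in some but not all. Col6a4 and Col28a1 had reads in none. The number with reads was 29, 25, 29 and 29 in SJL_B6 replicates 1 to 4, 27, 26, 23 and 26 in AD_B6 and 30, 26, 31 and 32 in AD_TG. Replicate 2 of SJL_B6 and of AD_TG lay inside the range of AD_B6, and the other 6 libraries of those groups lay above it. The lowest number, 23, came from AD_B6 replicate 3, which also had the fewest genes with reads over all symbols. For the 27 other chains the ranges of AD_B6 and AD_TG did not overlap, at 15 to 16 and 17 to 18. Over all symbols, genes with reads numbered 8748 to 11449 in AD_B6 and 11019 to 12018 in AD_TG, ranges that overlapped by 1 library of each group. These numbers are a description with no test.

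**Figure D1:**
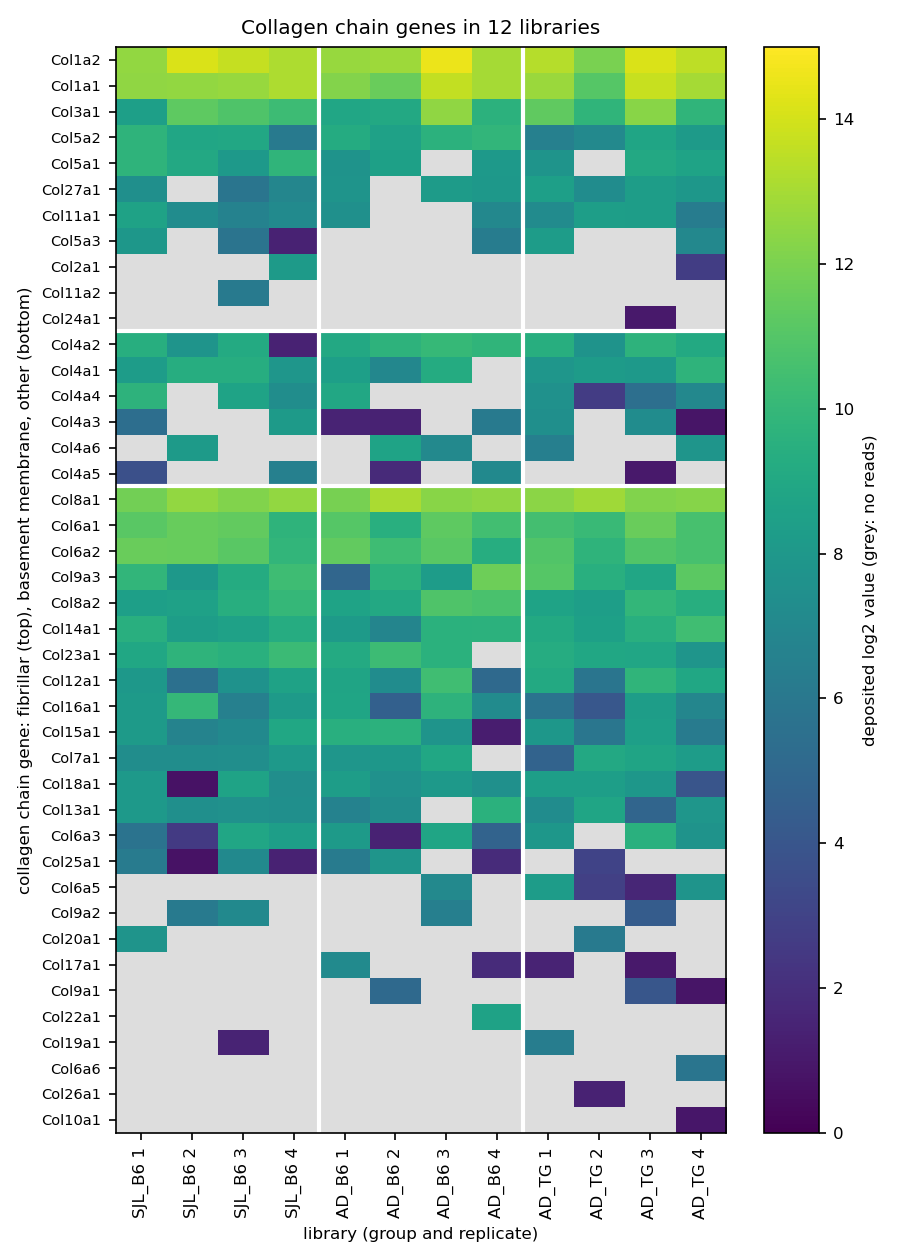
Deposited log2 values of the 42 collagen chain genes with reads (rows, by class and then by mean) in the 12 libraries (columns, by group and replicate); grey marks a gene without reads. Rows near the top of each class are filled across all or nearly all of the 12 libraries, and lower rows hold isolated filled cells beside grey ones.

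Many chains had either an estimated 100 or more reads in a library or none. Of the 528 combinations of gene and library, 195 had no reads, 28 had an estimated 1 to 10 reads, 41 had 11 to 99 and 264 had 100 or more. Of the 27 genes with reads in only some libraries, 20 had no reads in at least 1 library and an estimated 100 or more in another. Col2a1, the chain of cartilage type II collagen, had an estimated 343 reads in SJL_B6 replicate 4, 7 in AD_TG replicate 4 and none in the other 10 libraries. Col22a1, a chain of tissue junctions, had an estimated 306 reads in AD_B6 replicate 4 and none elsewhere. For such genes a group mean describes 1 or 2 libraries, and means with an SD are given below only where all 4 libraries of a group had reads.

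**Figure D2:**
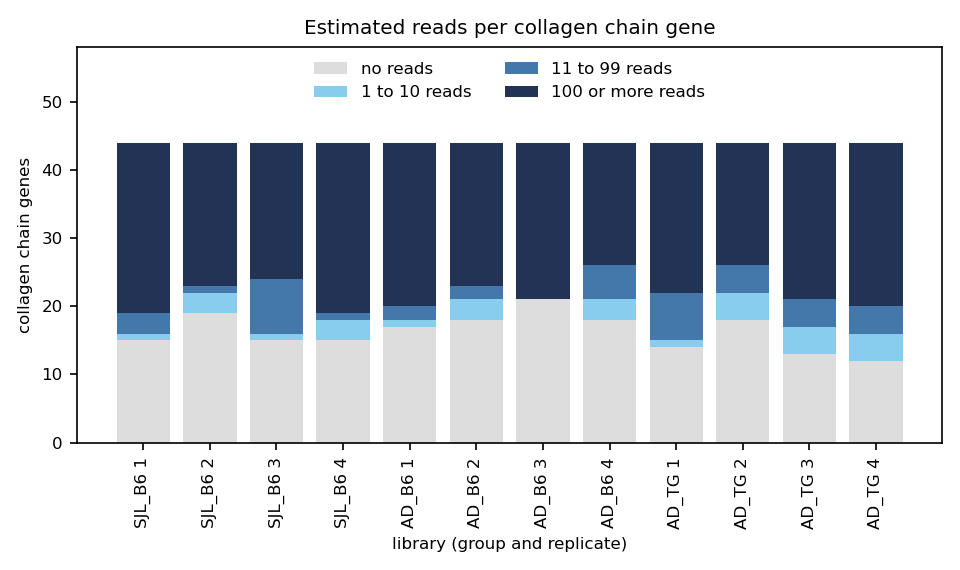
Number of the 44 collagen chain genes (vertical axis) with no reads, 1 to 10, 11 to 99 and 100 or more estimated reads in each library (horizontal axis, group and replicate). In each library the genes with 100 or more reads and those without reads together outnumber the genes between them.

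Among the fibrillar chains, Col1a1, Col1a2, Col3a1 and Col5a2 had reads in all 12 libraries. Col1a1 and Col1a2 encode the chains of type I collagen, the main fibril protein of connective tissue. Col1a2 had values of 12.55, 14.14, 13.71 and 13.15 (SJL_B6), 12.66, 12.78, 14.53 and 13.01 (AD_B6) and 13.33, 11.98, 14.15 and 13.49 (AD_TG). Col1a1 had values of 12.51, 12.59, 12.66 and 13.14 (SJL_B6), 12.21, 11.59, 13.61 and 13.00 (AD_B6) and 12.74, 11.05, 13.72 and 13.00 (AD_TG). Each run of 4 values follows the replicate numbers 1 to 4 of the group named after it. Both genes were lowest in AD_TG replicate 2 and high in replicate 3 of AD_B6 and of AD_TG, and the groups overlapped. The group means of Col1a2 were 13.39 ± 0.69 (SJL_B6), 13.25 ± 0.87 (AD_B6) and 13.24 ± 0.91 (AD_TG; SD, n = 4), closer to each other than the libraries of any group.

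Col3a1 encodes type III collagen, which joins type I in the fibrils of soft tissue and vessel walls. It had values of 8.49, 11.30, 10.87 and 10.27 (SJL_B6), 8.89, 9.07, 12.51 and 9.65 (AD_B6) and 11.36, 9.82, 12.32 and 9.84 (AD_TG). Replicate 3 was again the highest library of AD_B6 and of AD_TG, and SJL_B6 replicate 1 was the lowest of the 12. For Col1a2 and Col3a1, whose levels moved together across libraries, the sequence before the transcript start is shown, so that the letters can be read beside the values. Both come from RefSeq on GRCm38.p6, whose table held 35 of the 44 genes. The plus strand is printed, from 248 to 126 bases before the start for Col1a2 (chr6:4505370-4505492) and from 250 to 1 base before it for Col3a1 (chr1:45311288-45311537), with motif matches in capitals. Of each window, the longest stretch that no exon of a GENCODE annotation covers is printed. For Col1a2 that annotation has exons on either side of the printed bases, before the start used here.
Col1a2: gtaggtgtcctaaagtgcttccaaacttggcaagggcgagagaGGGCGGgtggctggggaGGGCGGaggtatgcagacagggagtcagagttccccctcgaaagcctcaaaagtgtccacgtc
Col3a1: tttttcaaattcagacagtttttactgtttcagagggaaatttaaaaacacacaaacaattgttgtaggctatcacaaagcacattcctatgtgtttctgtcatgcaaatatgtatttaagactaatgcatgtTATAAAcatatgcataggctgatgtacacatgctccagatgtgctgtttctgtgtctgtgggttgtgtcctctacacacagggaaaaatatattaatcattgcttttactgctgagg
Both strands were searched for CCAAT, for TATAAA and for GGGCGG, and no match overlapped another. The window of 250 bases before Col1a2 held GGGCGG at 205 and 188 bases before the start, both printed, and CCAAT at 109 bases, outside the printed stretch. The Col3a1 window held TATAAA at 117 bases before the start. Over 32851 windows of 250 bases, 33.8% held CCAAT, 12.4% TATAAA and 32.7% GGGCGG, so none of these matches is rare. The windows shared none of the 3 motifs.

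Type V chains co-assemble with type I collagen and set the width of its fibrils. Col5a2 had values of 9.75, 8.86, 9.02 and 6.11 (SJL_B6), 9.25, 8.59, 9.65 and 9.87 (AD_B6) and 6.55, 7.08, 8.84 and 8.20 (AD_TG). Its AD_B6 libraries were close together, and 2 of the 4 AD_TG libraries were below all of them by more than 1 unit. Col5a1 ran from 8.12 to 9.82 in SJL_B6 and had no reads in AD_B6 replicate 3 and AD_TG replicate 2; its other AD_B6 and AD_TG values ran from 7.70 to 9.03. Col5a3 had reads in 6 libraries, from 1.42 to 8.27.

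Col11a1 encodes a chain that starts thin fibrils, best known from cartilage, and is close kin of the type V chains. It stood at 8.64, 7.31, 6.68 and 7.20 in SJL_B6 and at 7.22, 8.42, 8.37 and 6.30 in AD_TG. In AD_B6 it stood at 7.52 and 7.03 in replicates 1 and 4 and had no reads in replicates 2 and 3, so the group was split and not uniformly low. Col27a1, a fibrillar chain of cartilage and other tissues, ran from 7.29 to 8.45 in AD_TG, and had reads in 3 of 4 libraries of SJL_B6 (5.81 to 7.49) and of AD_B6 (7.79 to 8.23). The other fibrillar chains were sparse: Col2a1 had reads in 2 libraries (8.19 and 2.74), Col11a2 in 1 (6.17) and Col24a1 in 1 (1.01).

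Type IV collagen of most basement membranes, endothelial ones included, is built from the chains of Col4a1 and Col4a2, a pair of neighbouring genes read in opposite directions. Col4a1 stood at 8.31, 9.33, 9.32 and 7.91 in SJL_B6 and at 7.91, 8.25, 8.05 and 9.77 in AD_TG. In AD_B6 it stood at 8.49, 6.94 and 9.23 in replicates 1 to 3 and had no reads in replicate 4. Col4a2 had values of 9.40, 7.76, 9.18 and 1.43 (SJL_B6), 9.06, 9.70, 10.05 and 9.82 (AD_B6) and 9.42, 7.70, 9.69 and 9.13 (AD_TG). The partners parted in 2 libraries: AD_B6 replicate 4 had an estimated 690 reads of Col4a2 and none of Col4a1, and SJL_B6 replicate 4 had an estimated 282 reads of Col4a1 and 2 of Col4a2. The chains of specialised basement membranes were less regular. Col4a3 and Col4a4 each had reads in 8 libraries, at 0.85 to 8.17 and 2.68 to 9.69, and Col4a5 and Col4a6 each in 5, at 1.02 to 7.14 and 6.47 to 8.69.

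**Figure D3:**
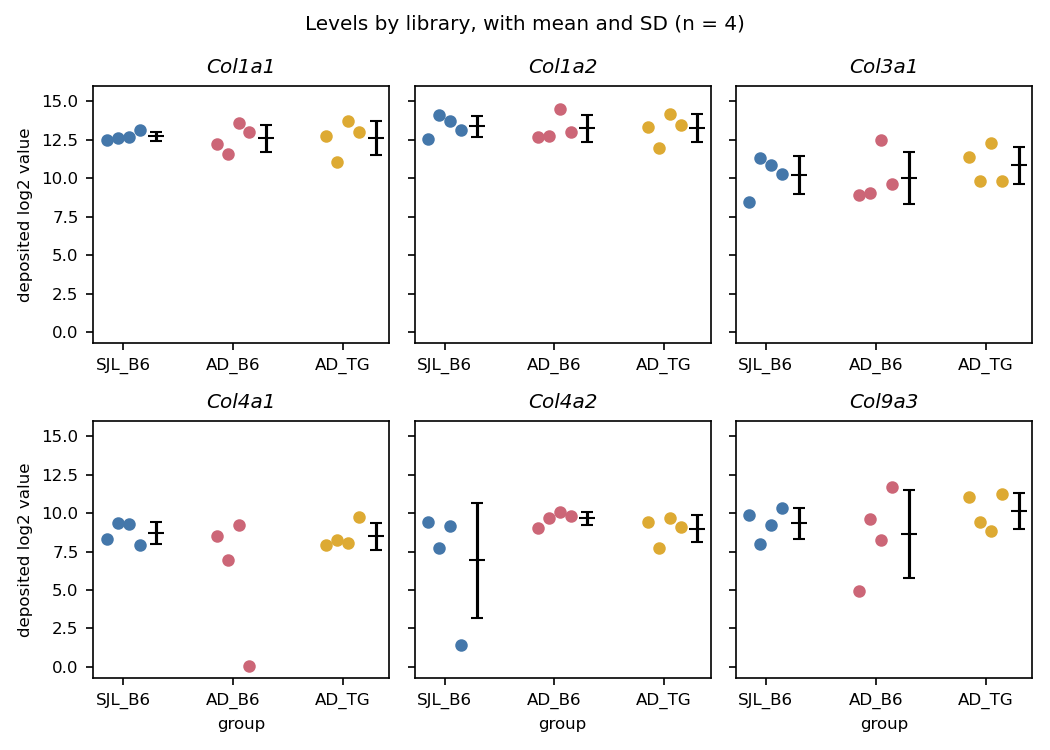
Deposited log2 values (vertical axis) of 5 chains of fibrils and basement membrane and of Col9a3 by group (horizontal axis); each point is a library, and the black bar gives the mean and SD of the 4 libraries where all 4 had reads. The groups overlap for all 6 genes, Col4a2 has 1 low library in SJL_B6 at 1.43, and Col4a1 has 1 AD_B6 library without reads.

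Type VI collagen forms beaded filaments around cells. Col6a1 had values of 11.16, 11.52, 11.38 and 9.74 (SJL_B6), 11.05, 9.46, 11.25 and 10.47 (AD_B6) and 10.53, 10.17, 11.55 and 10.64 (AD_TG). Col6a2, its partner chain, had group means of 11.03 ± 0.78 (SJL_B6), 10.56 ± 0.91 (AD_B6) and 10.56 ± 0.56 (AD_TG; SD, n = 4). Col6a3, the third chain of the trimer, was far less even, from no reads in AD_TG replicate 2 to 9.51 in AD_TG replicate 3. Col6a5, which encodes an alternative to that chain, had reads in 4 of 4 AD_TG libraries (1.61 to 8.31), in AD_B6 replicate 3 (7.08) and in no SJL_B6 library, too few for the test described below. Its estimated reads were 180, 8, 2 and 263 in AD_TG replicates 1 to 4 and 193 in AD_B6 replicate 3. Col6a6 had reads in 1 library, at 5.81.

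The short-chain collagen of type VIII forms networks under endothelium, and its chain gene Col8a1 had the smallest SD of the 15 chain genes with reads in all 12 libraries. Col8a1 had values of 11.82, 12.57, 12.16 and 12.54 (SJL_B6), 11.93, 13.11, 12.31 and 12.52 (AD_B6) and 12.41, 12.85, 12.16 and 12.27 (AD_TG). Its SD over the 12 libraries was 0.36, against 0.75 for Col1a2 and 1.31 for Col3a1. Col8a2, the partner chain, had an SD of 0.86 and ran from 8.41 in AD_TG replicate 2 to 10.88 in AD_B6 replicate 3. Col10a1, the related chain of hypertrophic cartilage, had an estimated 1 read in 1 library, at 0.89.

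Among the collagens that sit on the surface of fibrils, Col9a3, Col12a1, Col14a1 and Col16a1 had reads in all 12 libraries. Col9a3, a chain of type IX collagen known from cartilage, had values of 9.88, 7.98, 9.21 and 10.32 (SJL_B6), 4.96, 9.63, 8.27 and 11.70 (AD_B6) and 11.06, 9.44, 8.87 and 11.24 (AD_TG). Its lowest and its highest library were both in AD_B6. Its partners Col9a1 and Col9a2 had reads in 3 libraries (0.85 to 5.11) and 4 libraries (4.36 to 7.14), so the 3 chains of that trimer were not seen together in most libraries. Of the bone and cartilage markers, 9 of 10 had reads, their summed level ran from 11.02 to 12.45, and Matn1 was at 0 in all 12 libraries. Their part in the level of Col9a3 was not tested. Col12a1 and Col14a1, which bind type I fibrils, ran from 5.13 to 10.38 and from 6.81 to 10.40. Col16a1 ran from 4.05 to 9.96, and Col19a1 (1.48 and 6.35), Col20a1 (7.79 and 6.21) and Col22a1 (8.65) had reads in 2, 2 and 1 libraries.

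Col15a1 and Col18a1 encode collagens of the basement membrane zone, and the end of the second is released as endostatin, an inhibitor of vessel growth. Col18a1 ran from 7.50 to 8.34 in AD_B6. In SJL_B6 it stood at 8.10, 0.76, 8.73 and 7.41 and in AD_TG at 8.42, 8.41, 7.93 and 3.97, so 1 library of each was far below the rest. Col15a1 ran from 1.22 in AD_B6 replicate 4 to 9.66 in AD_B6 replicate 2. The membrane-spanning chain Col23a1 ran from 7.83 to 10.27 in 11 libraries, and Col7a1, the chain of skin anchoring fibrils, from 4.77 to 9.08 in 11. Col4a1, Col7a1 and Col23a1, each with reads in 11 libraries, all lacked reads in AD_B6 replicate 4, where 26 of the 44 genes had reads. Col13a1 had reads in every library but AD_B6 replicate 3, at 4.90 to 9.55.

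Col25a1 encodes a neuronal membrane collagen whose shed part is known to bind amyloid fibrils in plaques. It stood at 6.24, 0.75, 7.11 and 1.42 in SJL_B6, at 6.27, 7.79, no reads and 1.87 in AD_B6 and at 2.99 in replicate 2 of AD_TG, with no reads in the other 3. The estimated reads were at most 81 in 11 of the 12 libraries and 264 in AD_B6 replicate 2, so its levels rest on few reads. Its difference between groups did not pass the test described below. Col17a1 of hemidesmosomes had reads in 4 libraries, at 1.02 to 7.15, and Col26a1 in 1, at 1.41.

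The groups were compared with limma in 1 fit of the 12 libraries. The test took in 11955 genes, those whose linear amount reached 10 in 4 or more libraries, among them 29 collagen chain genes: 8 fibrillar, 5 of type IV and 16 others. Of the 29, 0 passed a Benjamini-Hochberg adjusted p of 0.05 in AD_B6 against SJL_B6, in AD_TG against AD_B6 or in AD_TG against SJL_B6. The share called over all genes tested was 0% in each. At an unadjusted p of 0.05, 1 of the 29 passed in AD_B6 against SJL_B6, where 5.41% of all genes did. None of the 29 passed in AD_TG against AD_B6, where 5.35% of all genes did, or in AD_TG against SJL_B6, where 2.99% did. When 1 library was left out, these numbers ran from 0 (without SJL_B6 replicate 4) to 4 (without AD_B6 replicate 1) in the first comparison, from 0 to 2 in the next and from 0 to 1 in the last. Over all 11955 genes, the numbers passing then ran from 568 to 883, from 492 to 819 and from 290 to 441. The 883 also came without AD_B6 replicate 1. The comparisons share control libraries, so each is described on its own.

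In AD_B6 against SJL_B6, 9 of the 29 were higher and 20 lower in AD_B6, where 40.2% of all genes tested were higher. The median difference of the 29 was -0.47, against -0.31 for all genes tested. This median was -0.02 without AD_B6 replicate 2, -0.08 without AD_B6 replicate 4 and -0.72 without SJL_B6 replicate 2. By class, 2 of 8 fibrillar chains, 2 of 5 type IV chains and 5 of 16 other chains were higher. The smallest p belonged to Col4a2, which differed by 2.72 (SE 1.21, adjusted p = 0.869, limma). The difference was 0.88 without SJL_B6 replicate 4, the library with an estimated 2 reads. Col11a1 differed by -3.82 (SE 1.92), with 2 of 4 AD_B6 libraries without reads, and by -2.60 when one or the other of them was left out. Col4a1 differed by -2.54 (SE 1.43), and by -0.50 without AD_B6 replicate 4, the library that lacked its reads. With a pseudocount of 10 in place of 1, the Col11a1 difference was -2.20.

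In AD_TG against AD_B6, 18 of the 29 were higher in AD_TG, where 62.8% of all genes tested were higher. By class, these were 6 of 8 fibrillar, 3 of 5 type IV and 9 of 16 other chains. The median difference of the 29 was 0.30, against 0.41 for all genes tested. This median was -0.03 without AD_B6 replicate 4, -0.01 without AD_TG replicate 1, 0.04 without AD_TG replicate 3, 0.66 without AD_B6 replicate 3 and 0.82 without AD_TG replicate 2. Col11a1 differed by 3.94 (SE 1.92, adjusted p = 0.871, limma), with the same AD_B6 libraries without reads. It differed by 2.73 when one or the other of them was left out. Col5a2 differed by -1.67 (SE 0.89), lower in AD_TG, and Col4a1 by 2.32 (SE 1.43), which was 0.27 without AD_B6 replicate 4. With a pseudocount of 10, the differences were 2.32 for Col11a1 and 1.497 for Col4a1.

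In AD_TG against SJL_B6, 14 of the 29 were higher in AD_TG, where 53.3% of all genes tested were higher. By class, these were 4 of 8 fibrillar, 3 of 5 type IV and 7 of 16 other chains. The median difference of the 29 was -0.10, against 0.08 for all genes tested. This median was 0.03 without SJL_B6 replicate 4, 0.25 without AD_TG replicate 2 and -0.26 without AD_TG replicate 3. Col4a2 differed by 2.05 (SE 1.21), and by 0.21 without SJL_B6 replicate 4. Col5a1 differed by -2.82 (SE 1.87), and by -0.69 without AD_TG replicate 2, which lacked its reads. Col27a1 differed by 2.96 (SE 2.01), and by 1.28 without SJL_B6 replicate 2, which lacked its reads. The adjusted p of all 3 in limma was 0.999.

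How large a difference could be seen depended on the chain. For Col8a1 the 95% interval of AD_TG against AD_B6 ran from -0.66 to 0.57, and for Col1a2 from -0.85 to 0.84. For Col11a1 it ran from -0.02 to 7.89. Over the 29 genes the median distance from the difference to the end of its interval was 2.94, so differences of several units were not detectable for many chains. Col1a2 and Col8a1 were chosen for this statement after their values were seen.

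**Figure D4:**
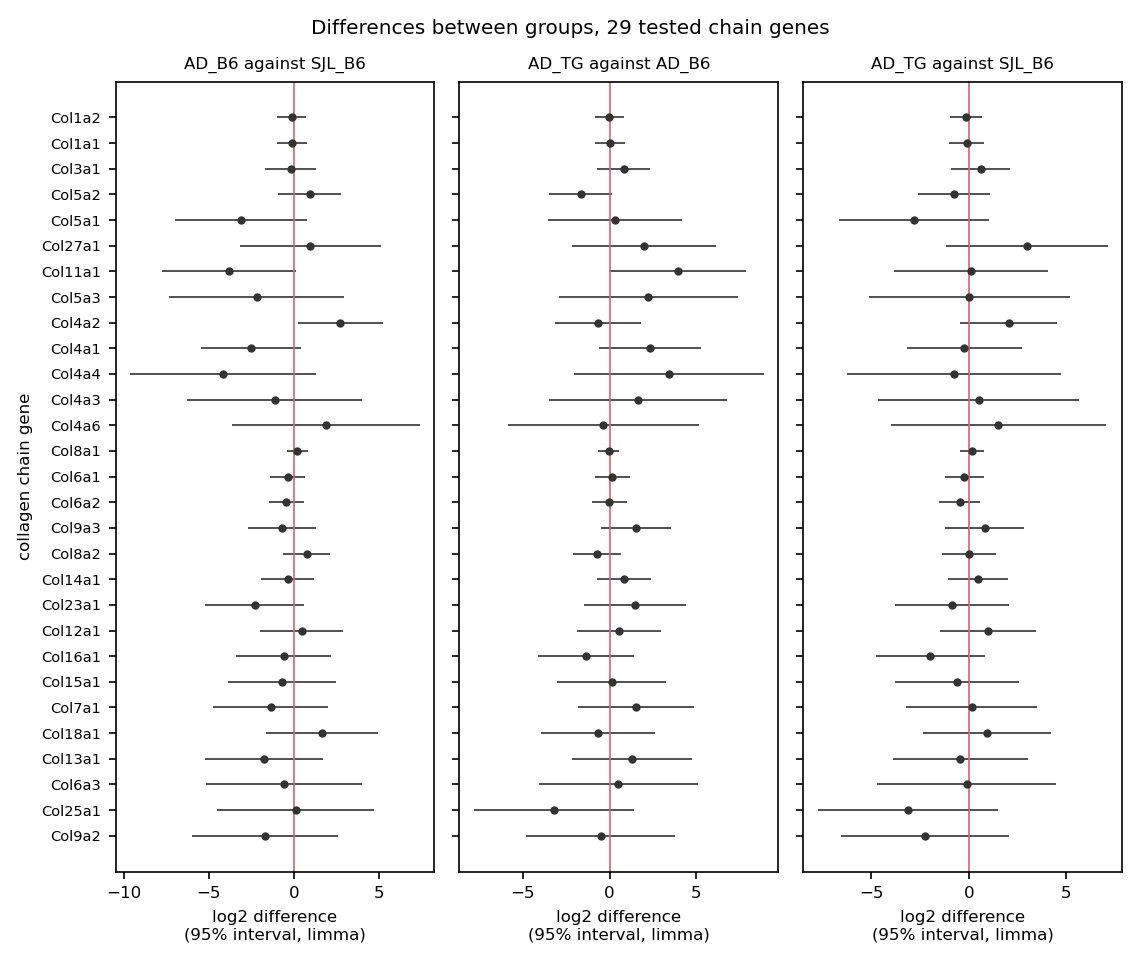
Differences in deposited log2 value (horizontal axes, first group minus second) of the 29 tested collagen chain genes (vertical axis, by class and mean) in the 3 comparisons; points are limma estimates and bars 95% intervals. The interval of Col4a2 in AD_B6 against SJL_B6 leaves out 0, with an adjusted p of 0.869, and intervals are short for Col8a1, Col1a1 and Col1a2.

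The genes that modify, process, bind and break down collagen were counted in the same fit, and 0 of these passed the adjusted threshold in any comparison. At an unadjusted p of 0.05, in AD_B6 against SJL_B6, 3 of 17 genes of modification and folding passed, 1 of 8 of processing and crosslinking, 1 of 11 of breakdown and none of the other lists, where 5.41% of all genes did. In AD_TG against AD_B6, 2 of 17 and 1 of 8 genes of the first 2 lists passed and none of the others, where 5.35% of all genes did. In AD_TG against SJL_B6, 3 of 17 of the first list and 1 of 9 fibril partners passed and none of the others, where 2.99% of all genes did. Of 17 tested genes of collagen modification and folding, 9 were higher in AD_B6 than in SJL_B6, and 7 were higher in AD_TG than in AD_B6. Plod2, a lysyl hydroxylase that prepares collagen for crosslinking, stood at 1.76, 0, 4.19 and 0 in SJL_B6, without reads in replicates 2 and 4. In AD_B6 the gene stood at 8.08, 8.37, 8.50 and 7.45. In AD_TG it stood at 6.04, 8.57, 3.50 and 7.09. The difference of AD_B6 from SJL_B6 was 6.61 (SE 2.08, adjusted p = 0.869, limma). P3h3, a prolyl hydroxylase family member, stood at 9.17 to 9.91 in SJL_B6, 8.67 to 9.79 in AD_B6 and 7.14 to 8.24 in AD_TG, and differed by -1.77 (SE 0.68, adjusted p = 0.999) in AD_TG against SJL_B6.

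Of 8 tested genes of procollagen processing and crosslinking, 1 was higher in AD_B6 than in SJL_B6 and 6 were higher in AD_TG than in AD_B6. Pcolce2, an enhancer of procollagen cleavage, differed by -4.90 (SE 2.04) and Loxl2, a crosslinking oxidase, by -2.57 (SE 1.31) in AD_B6 against SJL_B6. Pcolce2 had no reads in AD_B6 replicates 1 and 2 and stood at 2.86 and 10.58 in replicates 3 and 4. The Loxl2 difference was -1.31 without AD_B6 replicate 2, where the gene stood at 1.81. Of 9 fibril partners, proteins that bind collagen fibrils, 0 were higher in AD_B6 than in SJL_B6, where 40.2% of all genes were, and 4 were higher in AD_TG than in AD_B6. Tnxb, a tenascin, differed by -5.04 (SE 2.06) in AD_TG against SJL_B6, and Thbs2, a thrombospondin, by -2.74 (SE 1.51) in AD_B6 against SJL_B6. Tnxb stood at 1.49 in AD_TG replicate 1 and had no reads in AD_TG replicates 2 to 4. The Thbs2 difference was -0.84 without AD_B6 replicate 4, which lacked its reads. Of 11 genes of collagen breakdown, 6 were higher in AD_B6 than in SJL_B6 and 8 in AD_TG than in AD_B6. Timp1, an inhibitor of metalloproteinases, differed by -5.25 (SE 2.39) in AD_B6 against SJL_B6, and Mmp14, a collagen-cutting membrane proteinase, by 0.85 (SE 0.50) in AD_TG against AD_B6. Timp1 had no reads in AD_B6 replicates 2 and 3 and stood at 3.72 and 1.87 in replicates 1 and 4.

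Of 7 tested collagen receptors, 1 was higher in AD_B6 than in SJL_B6 and 7 were higher in AD_TG than in AD_B6, where 62.8% of all genes were. Itgb1, the chain shared by the collagen-binding integrins of the list, stood at 11.02 ± 0.55 (SJL_B6), 10.21 ± 0.74 (AD_B6) and 10.85 ± 0.47 (AD_TG; SD, n = 4). Itga11, its partner for fibrillar collagen, had reads in 7 libraries and differed by 5.05 (SE 2.58) in AD_TG against SJL_B6. Of 10 tested genes of TGF-beta signalling, the pathway known to drive collagen transcription, 6 were higher in AD_B6 than in SJL_B6 and 5 in AD_TG than in AD_B6. The median difference of the 6 lists in AD_B6 against SJL_B6 was 0.26 for modification and folding, -1.34 for processing and crosslinking, -0.74 for fibril partners, 0.01 for breakdown, -0.34 for receptors and 0.22 for TGF-beta signalling, against -0.31 for all genes tested. In AD_TG against AD_B6 it was -0.30, 0.30, -0.06, 0.42, 0.64 and 0.03 in the same order, against 0.41 for all genes tested. In AD_TG against SJL_B6 it was -0.29, -0.30, -0.37, 0.43, -0.02 and -0.02, against 0.08 for all genes tested. In that comparison 7 of 17, 2 of 8, 2 of 9, 7 of 11, 3 of 7 and 4 of 10 genes of the lists were higher in AD_TG. Tgfbr1, a receptor, differed by 2.23 (SE 1.66) in AD_TG against SJL_B6, and Tgfb3, a ligand, by -1.54 (SE 1.29) in AD_TG against AD_B6. The Tgfbr1 difference was 1.02 without SJL_B6 replicate 3, and that of Tgfb3 was -2.43 without AD_B6 replicate 2 and -0.74 without AD_TG replicate 3. With a pseudocount of 10 in place of 1, the named differences were 4.39 for Plod2, -3.03 for Pcolce2, -3.24 for Timp1, -2.32 for Tnxb and 2.79 for Itga11. The adjusted p in limma of the genes named from these lists ran from 0.869 to 0.999.

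Chains that build 1 trimer or 1 fibril were then compared across the 12 libraries. Of 6 such pairs, 3 had reads of both chains in all 12 libraries, and Col4a1 with Col4a2, Col5a1 with Col5a2 and Col6a2 with Col6a3 were not tested. Permutation tests were two-sided, with p adjusted over the 3 pairs. Col1a1 and Col1a2 had a Pearson r of 0.786 (adjusted permutation p = 0.00334) and a Spearman rho of 0.734 (0.00843). Without AD_B6 replicate 2 and AD_TG replicate 2, the libraries farthest from the median of Col1a1, r was 0.657 and rho was 0.576. Col1a2 and Col3a1 had an r of 0.844 (adjusted permutation p = 0.00237) and a rho of 0.874 (0.00111). Without AD_TG replicate 2 and AD_B6 replicate 3, r was 0.906 and rho was 0.903. Col6a1 and Col6a2 had an r of 0.726 (adjusted permutation p = 0.00819) and a rho of 0.741 (0.00843). Without SJL_B6 replicate 4 and AD_B6 replicate 2, r was 0.770 and rho was 0.661. After the group means were subtracted, r was 0.785, 0.890 and 0.713 for the 3 pairs, so the chains moved together among libraries of the same group.

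Partner chains were near the top of each other's lists of like genes. Among the 4949 other genes with reads in all 12 libraries, ranked by r with Col1a2, Col3a1 was at rank 9 and Col1a1 at rank 22. Ranked by r with Col6a1, Col6a2 was at rank 32. In the other direction, Col1a2 was at rank 9 for Col3a1 and 27 for Col1a1, and Col6a1 was at rank 56 for Col6a2. These ranks are a description across genes, which are not independent replicates.

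Col1a2 and Col9a3 were each set beside markers of other cells. The relations of each with the 6 fibroblast markers, 5 fibril partners and 4 choroid plexus genes that had reads in all 12 libraries were computed, 30 relations chosen after the values were seen, with p adjusted over the 30. Col1a2 and Dcn, the gene of the fibril-binding proteoglycan decorin, had an r of 0.884 and a rho of 0.853 (adjusted permutation p = 0.00225 and 0.0115), and r was 0.754 without AD_TG replicate 2 and AD_B6 replicate 3. Fn1, the fibronectin gene, had an r of 0.727 with Col1a2 (adjusted permutation p = 0.0351) and a rho of 0.720 (0.0549), and r was 0.467 without those libraries. Foxc1, a transcription factor of the meninges, had an r of 0.711 with Col1a2 (adjusted permutation p = 0.0304) and a rho of 0.476 (0.225), and r was 0.290 without them, so that relation rests on those libraries. Of the 6 fibroblast markers 1 passed, with an r of -0.224 to 0.711, and of the 5 fibril partners 2 passed, with an r of 0.136 to 0.884. The 4 choroid plexus genes had an r of -0.383 to -0.0284 with Col1a2, and 0 of 4 passed.

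Col9a3 and Clic6, a chloride channel gene abundant in choroid plexus epithelium, had an r of 0.924 and a rho of 0.832 (adjusted permutation p = 0.0018 and 0.0115). Clic6 stood at 5.67 in AD_B6 replicate 1 and 12.67 in AD_B6 replicate 4, the libraries lowest and highest in Col9a3. Without these, r was 0.728. Ranked by r with Col9a3, Clic6 was at rank 3 of the 4949 genes. Ttr, the transthyretin gene of that epithelium, had an r of 0.831 and a rho of 0.867 with Col9a3 (adjusted permutation p = 0.0043 and 0.0115), and r was 0.721 without the same libraries. Kl and Aqp1 had an r of 0.590 and 0.522, and neither passed on r (adjusted permutation p = 0.217 for both); rho was 0.783 for Kl (0.0224) and 0.685 for Aqp1 (0.0749). Igf2, a growth factor gene of leptomeninges and choroid plexus, had an r of 0.786 with Col9a3 (adjusted permutation p = 0.011) and a rho of 0.783 (0.0224), and r was 0.730 without the same libraries. The 6 fibroblast markers, Igf2 included, had an r of -0.558 to 0.786 with Col9a3; 1 of 6 passed, and Gjb2, Vtn, Mgp and Foxc1 had negative values. Of the 5 fibril partners 0 passed, with an r of -0.338 to 0.353. The summed choroid plexus markers, all 6 of which had reads, ranged over 13.51 to 18.55 (SJL_B6), 14.05 to 19.24 (AD_B6) and 16.67 to 18.75 (AD_TG). The sum was mostly Ttr, which stood at 13.38 to 18.51, 13.92 to 19.19 and 16.59 to 18.71 in the same groups. The part of the choroid plexus markers in the level of Col9a3 was not tested.

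**Figure D5:**
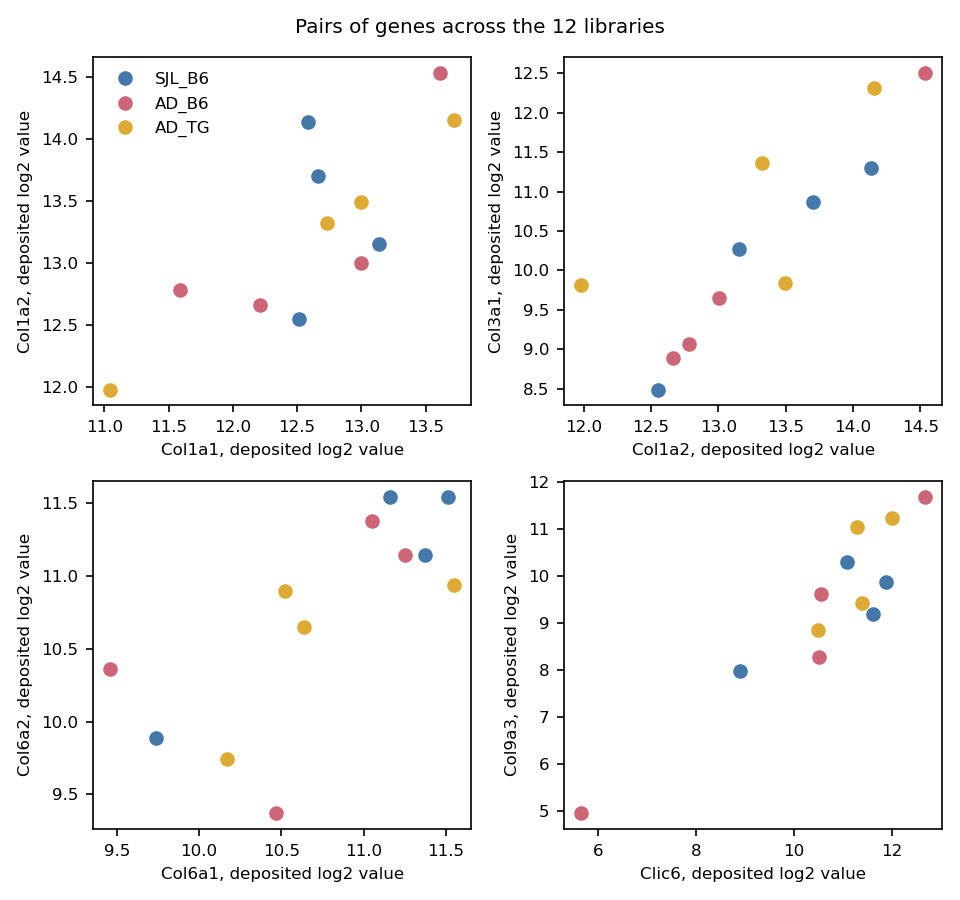
Deposited log2 values of 4 pairs of genes in the 12 libraries, 1 point per library and colours by group; both axes of each panel are deposited log2 values and do not start at 0. Points of the 3 groups mix along each trend (r 0.786, 0.844, 0.726 and 0.924), and the lowest point for Clic6 and Col9a3 is AD_B6 replicate 1.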

How the data were processed

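RNA of 12 libraries was measured, per the labels from 500 ng of total RNA with a Lexogen Quant-Seq kit. Each library has 1 file of log2 values, deposited by the authors with a gene symbol on each line. The files' linear totals of 6216992 to 7872830 differ between libraries, and the scaling is not given in the sources used here. Bowtie2, bedtools and hg19 are named per the submitters' processing notes; hg19 is a human build while the symbols are of the mouse, so no coordinates were taken from the files. Coordinates of the printed sequences are those of RefSeq on GRCm38.p6. Of 23282 entries, 35 symbols had more than 1; of these the entry of highest mean was used, which dropped 44.

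Linear amounts are 2 to the power of the deposited value, minus 1. The value of 1 read, 0.698 to 1.75, was estimated from the spacing of low values, of which 90.6 to 100% lay within 0.15 of whole reads. PCR copies are not independent molecules, so estimated reads do not count molecules. Genes whose linear amount reached 10 in 4 or more libraries entered limma 3.58.1 (R 4.3.3; eBayes with trend, 3 groups, 12 libraries, two-sided), adjusted over all genes. The fit was also run on values shuffled between libraries within each gene, with known changes added to AD_TG. Its outcome is not given here. Shuffling removes what genes of a library share, so that run is no support for results of these data. Correlations used 100000 permutations in scipy 1.17.1.

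The members and lists were chosen with earlier results of these data known. The rule for naming gave levels for every chain with reads, differences for the 3 chains with the smallest p in each comparison, and 2 genes for each further list. The lists were collagen modification and folding, procollagen processing and crosslinking, fibril partners, collagen breakdown, collagen receptors and TGF-beta signalling, of which Ccn2 was not among the symbols. Alternatives were other filters on low values, a pseudocount of 10, median scaling, a replicate block, limma without trend and leaving out each library.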

Additional observations from a re-analysis of the deposited data

Results flagged for a closer look

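Groups of 4 libraries were searched for a library set apart by a gap that exceeds the 95% critical value of Dixon's test. Of 57 groups searched, 3 were set apart, and chance alone sets apart about 5% of groups.

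Col18a1 in SJL_B6 stood at 0.755 in replicate 2, against 7.41 to 8.73 in the other 3 libraries. Col18a1 in AD_TG stood at 3.97 in replicate 4, against 7.93 to 8.42 in the others. The number of collagen chain genes with reads in SJL_B6 was 25 in replicate 2 and 29 in each of the other 3 libraries.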

How the results depend on the processing

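The 9 named differences kept their direction and stayed short of the threshold in 156 of 156 alternatives, with a lowest adjusted p of 0.649 in limma, and the 12 named differences of other lists did so in 210 of 210, with a lowest of 0.111. Many of these alternatives cannot change a difference: the filters, the replicate block, limma without trend and leaving out a library of the third group. Under them only the p-value could move, so they say nothing on direction. The 14 group mean levels moved by less than 1 SD in 56 of 56. Leaving out 1 of 4 libraries cannot move a mean by 1 SD, so such alternatives could not have come out otherwise. The 3 pair correlations, taken as Pearson r, kept direction and side of the threshold in 48 of 48. Spearman rho was recomputed only without the 2 farthest libraries and without a p. For Col1a1 with Col1a2 it fell there from 0.734 to 0.576. Without the trend in limma, 10 genes passed in AD_B6 against SJL_B6, 10 in AD_TG against AD_B6 and 2 in AD_TG against SJL_B6, none of them a collagen chain. With only genes that have reads in all 12 libraries, 15 chains were tested: 7 were higher in AD_TG than in AD_B6 and 8 higher in AD_TG than in SJL_B6. With genes that have reads in at least 1 library, 42 were tested and 22 were higher in AD_TG than in SJL_B6. The main fit gave 18 of 29 and 14 of 29. The filters change which chains are counted and leave the difference of each chain as it was. Over all genes tested, the share higher was 55.5% and 51.2% with reads in all 12 libraries. With reads in at least 1 library it was 49.8% in AD_TG against SJL_B6. Leaving out 1 library gave 7 to 13, 14 to 21 and 11 to 16 higher chains of 29 in the 3 comparisons, in the order above. Over all genes tested, 39.4 to 46.8%, 56.5 to 64.0% and 51.6 to 55.3% were then higher.

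Replicate numbers recur in all groups, but nothing says that they mark a shared source. Same-numbered libraries of different groups had correlations of their deviations from the group means between -0.0153 and 0.0670, and 4 of 12 libraries correlated best with their own number. With a replicate block in limma 0 genes passed in each comparison (685, 685 and 376 at an unadjusted p of 0.05, against 647, 639 and 357 without it), and 9, 18 and 14 chains were higher. Depth limits chains with few reads: 28 of the 528 combinations of gene and library rest on an estimated 1 to 10 reads.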
